A study of Mus musculus with 6 samples.

Results

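The genes that identify T cells and their main lineages were examined in RNA sequencing data from whole skin of 3 JunBΔep mice, labelled JunB dep, and 3 control mice, labelled JunB +/+. The 9 genes were taken by symbol from the deposited table of 23951 genes, as a fixed list of names. They are Cd3d, Cd3e and Cd3g, which encode chains of the CD3 complex, the coreceptor genes Cd4 and Cd8a, the lineage transcription factors Foxp3, Gata3 and Tbx21, and the inhibitory receptor gene Ctla4. The mice were C57Bl/6 littermates aged 6 to 7 months by the labels. JunBΔep mice lack JunB in cells that express K5, which drives the Cre, so the T cells of the skin keep the gene, and the paper describes the JunBΔep skin as lesional. The number of mice was 3 in each group, and the libraries are named here by group and by the replicate number 0, 1 or 2 of the labels. Values of single mice are given in the order of these numbers.

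T cells carry an antigen receptor that cannot signal by itself, and the CD3 chains couple it to kinases inside the cell, so that Cd3d, Cd3e and Cd3g are transcribed by nearly all T cells, αβ and γδ alike. CD4 and CD8 divide most αβ T cells into helper and cytotoxic cells, whereas many γδ T cells of mouse epidermis carry neither. FOXP3 is the lineage factor of regulatory T cells, GATA3 and T-bet (Tbx21) direct type 2 and type 1 responses, and CTLA4 competes with CD28 for the ligands CD80 and CD86. Several of these genes are not restricted to T cells in skin. Gata3 is also a factor of keratinocytes, the inner root sheath of the hair follicle and group 2 innate lymphoid cells, and Tbx21 is also expressed by natural killer cells.

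On the mm9 build, the 3 CD3 genes form a cluster on chromosome 9. Cd3g (44777655 to 44788514, minus strand) and Cd3d (44789876 to 44795135, plus strand) are transcribed away from each other with 1362 bases between their starts, and Cd3e (44806826 to 44817673, minus strand) begins 27797 bases from the start of Cd3d. Cd4 and Cd8a are both on chromosome 6 (124814710 to 124838239 and 71323421 to 71329165), Foxp3 is on chromosome X (7156802 to 7172369), Gata3 on chromosome 2 (9778705 to 9811661), Tbx21 on chromosome 11 (96959385 to 96976645) and Ctla4 on chromosome 1 (60943844 to 60972676).

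The 250 bases before the RefSeq start were read for the clustered CD3 genes, whose levels moved together in most mice, and for Foxp3 and Ctla4, which shared another pattern. RefSeq promoter entries of the GRCm38.p6 build matched 8 of the 9 genes by symbol, with 2 starts for Foxp3, and each sequence was found once in mm9. They lie at chr9:44788515-44788764, minus strand (Cd3g), chr9:44789619-44789868, plus strand (Cd3d), chr9:44817695-44817944, minus strand (Cd3e), chrX:7156552-7156801, plus strand and chrX:7157359-7157608, plus strand (Foxp3) and chr1:60965619-60965868, plus strand (Ctla4). All run 5′ to 3′ toward the gene, and capitals mark matches on either strand to the GATA and ETS factor motifs spelled out after the sequences.
Cd3g: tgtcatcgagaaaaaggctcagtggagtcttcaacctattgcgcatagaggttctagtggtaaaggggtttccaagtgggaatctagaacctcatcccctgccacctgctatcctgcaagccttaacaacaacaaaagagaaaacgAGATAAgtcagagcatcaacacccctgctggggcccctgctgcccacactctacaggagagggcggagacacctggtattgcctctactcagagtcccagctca
Cd3d: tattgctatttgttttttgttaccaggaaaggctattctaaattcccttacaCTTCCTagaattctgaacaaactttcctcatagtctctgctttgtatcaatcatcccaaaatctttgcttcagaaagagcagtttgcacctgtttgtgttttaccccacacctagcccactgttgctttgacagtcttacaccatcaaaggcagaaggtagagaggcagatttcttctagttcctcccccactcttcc
Cd3e: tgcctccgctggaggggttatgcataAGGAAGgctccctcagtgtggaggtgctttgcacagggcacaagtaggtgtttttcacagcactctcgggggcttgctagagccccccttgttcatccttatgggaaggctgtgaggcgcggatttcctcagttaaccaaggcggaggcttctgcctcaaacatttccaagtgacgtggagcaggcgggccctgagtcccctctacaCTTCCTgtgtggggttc
Foxp3 first start: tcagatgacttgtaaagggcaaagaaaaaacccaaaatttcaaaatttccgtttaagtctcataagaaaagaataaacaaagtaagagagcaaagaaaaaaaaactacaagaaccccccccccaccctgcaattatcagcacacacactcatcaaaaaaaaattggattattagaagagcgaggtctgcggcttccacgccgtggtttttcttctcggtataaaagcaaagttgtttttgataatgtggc
Foxp3 second start: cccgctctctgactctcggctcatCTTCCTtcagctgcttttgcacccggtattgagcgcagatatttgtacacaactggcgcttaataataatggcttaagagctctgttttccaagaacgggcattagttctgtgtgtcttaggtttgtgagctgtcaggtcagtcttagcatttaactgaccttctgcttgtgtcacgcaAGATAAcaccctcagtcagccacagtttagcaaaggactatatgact
Ctla4: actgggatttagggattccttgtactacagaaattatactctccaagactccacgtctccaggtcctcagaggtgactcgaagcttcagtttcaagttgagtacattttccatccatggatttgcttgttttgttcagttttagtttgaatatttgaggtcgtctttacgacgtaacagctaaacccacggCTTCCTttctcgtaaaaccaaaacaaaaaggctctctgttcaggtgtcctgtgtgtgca

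The letters of 4 motifs were searched on both strands of these windows, and no matches to different motifs overlapped in the 6 sequences shown. TGANTCA, the site of AP-1 dimers such as those with JunB, occurred in 0 of the 9 windows of the 8 genes, and in 6.75% of all 32851 promoter entries of this length. TGTGGT (RUNX factors) also occurred in 0 of 9, against 14.0% of all entries. AGATAA, the letters searched for GATA factors, occurred in 2 of 9, in Cd3g and the second Foxp3 start, against 9.99% of all entries. AGGAAG, searched for ETS factors, occurred in 5 of 9, in Cd3d, Cd3e, Ctla4, Tbx21 and the second Foxp3 start, against 29.5% of all entries. These matches describe letters in short windows only.

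The library labelled JunBΔep replicate 0 stood apart from the other 5. It had the highest value of the 6 mice for 29.7% of the 17021 tested genes and the lowest for 32.0%. The mucosal keratin gene Krt13 was at 1990 FPKM there (fragments per kilobase of transcript, scaled to the mapped fragments of the library) and at most 0.367 FPKM elsewhere. Further genes, chosen after their values were seen, also set it apart, with Krt4 at 1356 FPKM, S100a8 at 24456 FPKM against at most 744 FPKM elsewhere, the T cell cytokine gene Il17a at 6.17 FPKM against at most 0.122 FPKM, and the basal keratin gene Krt14 listed at 0 there and at 837 to 1304 FPKM elsewhere. Whether its body site, its label or the state of the skin differs from the other mice was not tested. Junb itself was at 59.3, 72.4 and 56.9 FPKM (controls) against 129.6, 42.8 and 28.0 FPKM (JunBΔep), the first of these being the library in question (log2 fold change -0.21, adjusted p = 0.901 from limma, and -0.84 with adjusted p = 0.367 without that library). Junb therefore does not show the deletion in the library labelled JunBΔep replicate 0. It cannot decide the label, since whole skin also holds cells that keep Junb. FPKM summed to 481078 to 630363 per mouse, and the number of reads per mouse is unknown. By the ratio shared most often among genes under 0.15 FPKM (8.64% to 13.6% of 671 genes per library), the scaling totals of the other mice were 0.955 to 1.14 times that of control replicate 0. The fold changes and list medians of the T cell genes are therefore given with and without JunBΔep replicate 0.

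The 9 genes covered a wide range of levels, and all 9 were above 0 FPKM in all 6 mice. Gata3 was the most abundant by far, at 78.2 ± 15.3 FPKM (SD, n = 3 control mice), a level above 94.1% of the tested genes. The CD3 chains followed in controls, with Cd3g at 13.1 ± 6.83, Cd3e at 5.85 ± 2.40 and Cd3d at 2.85 ± 1.34 FPKM (SD, n = 3). Next came Ctla4 at 1.79 ± 0.547, Cd4 at 0.865 ± 0.170, Cd8a at 0.329 ± 0.0328, Tbx21 at 0.261 ± 0.0944 and Foxp3 at 0.179 ± 0.0717 FPKM (SD, n = 3). FPKM is per transcript length, so these levels can be set side by side. In the control mice the ranges of Cd3g and Cd3e overlapped, as did those of Cd3e and Cd3d, Cd3d and Ctla4, Cd8a and Tbx21, and Tbx21 and Foxp3, whereas Gata3 lay above Cd3g, Ctla4 above Cd4, and Cd4 above Cd8a without overlap. Within a mouse the order was steadier, since Cd3g exceeded Cd3e in 6 of 6 mice and Cd3e exceeded Cd3d in 5 of 6.

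**Figure D1:**
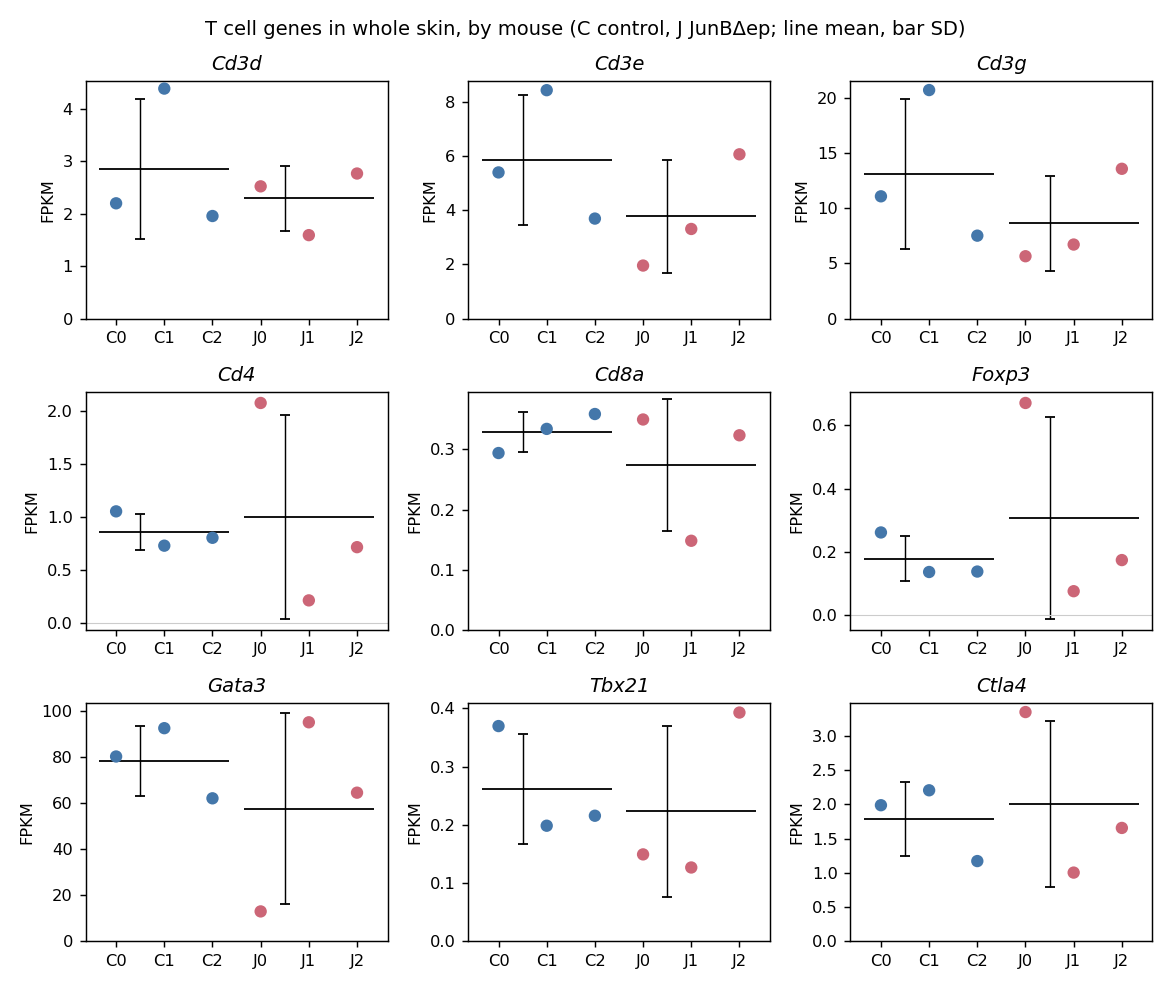
Each panel plots the FPKM of 1 gene in the 6 mice, with controls C0 to C2 in blue and JunBΔep mice J0 to J2 in red, a line at each group mean and a bar of 1 SD on each side of it. The groups overlap in every panel, and J0 is the highest mouse for Cd4, Foxp3 and Ctla4 and the lowest for Cd3e, Cd3g and Gata3.

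None of the T cell genes differed between the genotypes beyond the spread between mice. Of the 9, 0 had an adjusted p below 0.05 in the limma comparison, 0 had an unadjusted p below 0.05, and the smallest adjusted p was 0.722. Over all tested genes 1.38% were called at this threshold, 235 lower and 0 higher in JunBΔep mice (243 higher and 1044 lower at an unadjusted p below 0.05). With 1 mouse left out, the number of called genes ranged from 0 to 251. The groups overlapped for all 9 genes, whereas 5.62% of tested genes had all 3 JunBΔep mice above all controls and 9.16% had them all below. The log2 fold change was negative for 7 genes and positive for 2, with a median of -0.11 on the log2(FPKM + 0.5) scale against 0.031 over all tested genes. This scale understates the change of genes near 0.5 FPKM or less, which here are Cd8a, Tbx21 and Foxp3 and, in single mice, Cd4. Without JunBΔep replicate 0, 0 of the 9 were called either (smallest adjusted p = 0.750 from limma, for Cd4), and the log2 fold changes were -0.29 for Cd3d, -0.54 for Cd4, -0.18 for Cd8a and -0.018 for Tbx21. In bulk tissue, fewer T cells and less RNA per T cell cannot be told apart.

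**Figure D2:**
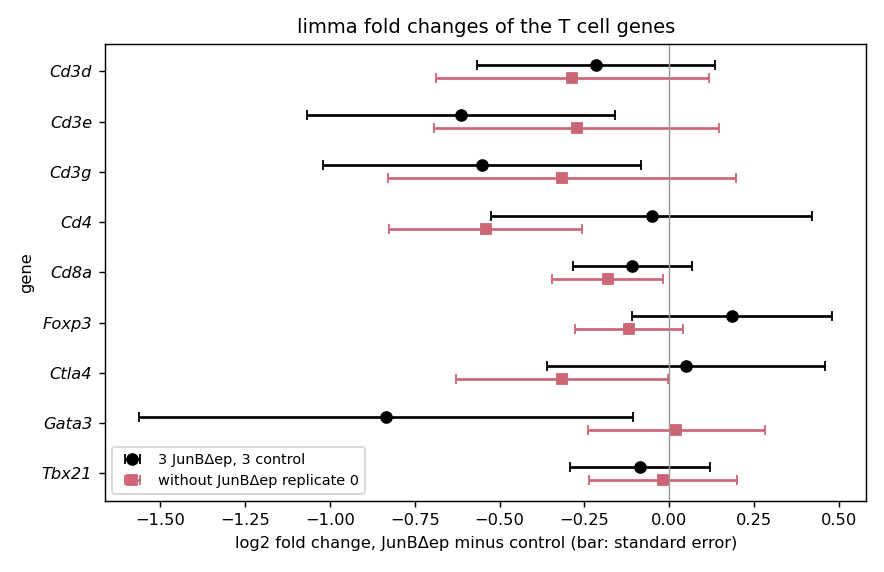
The horizontal axis gives the limma log2 fold change (JunBΔep minus control) of each T cell gene on the log2(FPKM + 0.5) scale with its standard error, for all 6 mice (black) and without JunBΔep replicate 0 (red). Gata3 moves from -0.83 to 0.020, Cd4 from -0.052 to -0.54, and Foxp3 from 0.19 to -0.12 when that mouse is left out.

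Of the CD3 chains, Cd3e was at 5.40, 8.44 and 3.70 FPKM (controls) against 1.96, 3.31 and 6.07 FPKM (JunBΔep). Cd3g was at 11.1, 20.7 and 7.52 FPKM (controls) against 5.66, 6.72 and 13.6 FPKM (JunBΔep). Both were highest in control replicate 1 and lowest in JunBΔep replicate 0, and JunBΔep replicate 2 exceeded 2 of the 3 controls. Their log2 fold changes were -0.61 (standard error 0.45) and -0.55 (standard error 0.47), each with an adjusted p of 0.722 from limma, and -0.27 and -0.31 without JunBΔep replicate 0. Cd3d was at 2.20, 4.38 and 1.96 FPKM (controls) against 2.52, 1.59 and 2.77 FPKM (JunBΔep), a log2 fold change of -0.22 ± 0.35 (SE, adjusted p = 0.833 from limma).

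The CD3 chains kept nearly fixed proportions in 5 of the 6 libraries. The ratio of Cd3e to Cd3d FPKM was 2.46, 1.93 and 1.89 in the controls and 2.08 and 2.20 in JunBΔep replicates 1 and 2, but 0.778 in JunBΔep replicate 0. The ratio of Cd3g to Cd3d was 3.85 to 5.05 in the same 5 mice and 2.24 in JunBΔep replicate 0, while Cd3g to Cd3e was 2.03 to 2.46 in the 5 mice and 2.89 in that library. All 3 proportions were thus outside the range of the other mice there, with Cd3d within the control range and Cd3e and Cd3g below every control. These ratios were chosen after the values were seen and carry no test.

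The coreceptor genes were below each CD3 chain in 5 of the 6 mice, while in JunBΔep replicate 0 Cd4 exceeded Cd3e. Cd4 was at 1.06, 0.732 and 0.806 FPKM (controls) against 2.08, 0.215 and 0.718 FPKM (JunBΔep), so that the JunBΔep mice held both the highest and the lowest value. Its log2 fold change was -0.052 ± 0.47 (SE, adjusted p = 0.974 from limma). Cd8a was at 0.294, 0.334 and 0.359 FPKM (controls) against 0.350, 0.148 and 0.324 FPKM (JunBΔep), a log2 fold change of -0.11 ± 0.18 (SE, adjusted p = 0.832 from limma). JunBΔep replicate 1 alone was outside the control range of Cd8a. Summed over the 3 chains, CD3 transcripts exceeded the sum of Cd4 and Cd8a by 13.8, 31.5 and 11.3 times in controls, 32.0 and 21.5 times in JunBΔep replicates 1 and 2, and 4.17 times in JunBΔep replicate 0. The last ratio was the lowest of the 6, and it was computed after the values were seen. The T cell receptor chain genes, which would separate αβ from γδ cells, were not analysed here.

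The regulatory T cell gene Foxp3 was at 0.262, 0.137 and 0.139 FPKM (controls) against 0.671, 0.0765 and 0.175 FPKM (JunBΔep). JunBΔep replicate 0 was 2.56 times the next highest mouse, and JunBΔep replicate 1 was the lowest of the 6. The log2 fold change was 0.19 ± 0.29 (SE, adjusted p = 0.829 from limma) and -0.12 without JunBΔep replicate 0. Ctla4, which regulatory and activated T cells express, was at 1.99, 2.21 and 1.17 FPKM (controls) against 3.35, 1.00 and 1.66 FPKM (JunBΔep). It had the same extremes as Foxp3, with a log2 fold change of 0.049 ± 0.41 (SE, adjusted p = 0.971 from limma) and -0.32 without JunBΔep replicate 0. Ctla4 exceeded Foxp3 in 6 of 6 mice, by 4.999 times in JunBΔep replicate 0 and 7.59 to 16.1 times in the others.

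Of the other lineage factors, Gata3 was at 80.2, 92.5 and 62.0 FPKM (controls) against 12.8, 95.1 and 64.5 FPKM (JunBΔep). JunBΔep replicates 1 and 2 lay at the level of the controls and JunBΔep replicate 0 far below all other mice, giving a log2 fold change of -0.83 ± 0.73 (SE, adjusted p = 0.724 from limma) and 0.020 without that library. Gata3 was 6.54 to 28.7 times Cd3e in FPKM. The keratins of the inner root sheath, where Gata3 is also active, followed another order: Krt71 was at 0.191, 0.344 and 1318 FPKM (controls) against 120, 2160 and 32.9 FPKM (JunBΔep). The keratinocyte gene Krt15, chosen after its values were seen, was at 80.7 FPKM in JunBΔep replicate 0 and 947 to 2388 FPKM in the others, while Krt5 was at 3725 FPKM there against 1588 to 2538 FPKM. Their part in the Gata3 value was not tested. Tbx21 was at 0.370, 0.198 and 0.215 FPKM (controls) against 0.149, 0.126 and 0.393 FPKM (JunBΔep), a log2 fold change of -0.086 ± 0.21 (SE, adjusted p = 0.892 from limma). JunBΔep replicate 2 had its highest value and JunBΔep replicate 1 its lowest.

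Set against the control mean, the 9 genes thus took both directions in JunBΔep replicates 0 and 2. In JunBΔep replicate 1 all but Gata3 lay below the control mean. JunBΔep replicate 0 was highest of the 6 for 3 genes (Cd4, Foxp3 and Ctla4) and lowest for 3 (Cd3e, Cd3g and Gata3), shares near the 29.7% and 32.0% of all tested genes for that library. JunBΔep replicate 1 was the lowest of the 6 for the other 6 genes, where 17.6% of tested genes were lowest in it. The leukocyte gene Ptprc, which encodes CD45, was also lowest in that mouse, at 2.13 FPKM against 4.64 to 15.9 FPKM in the others, and its part in these values was not tested. JunBΔep replicate 2 stayed within 0.26 of the control mean on the log2 scale for all 9 genes.

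**Figure D3:**
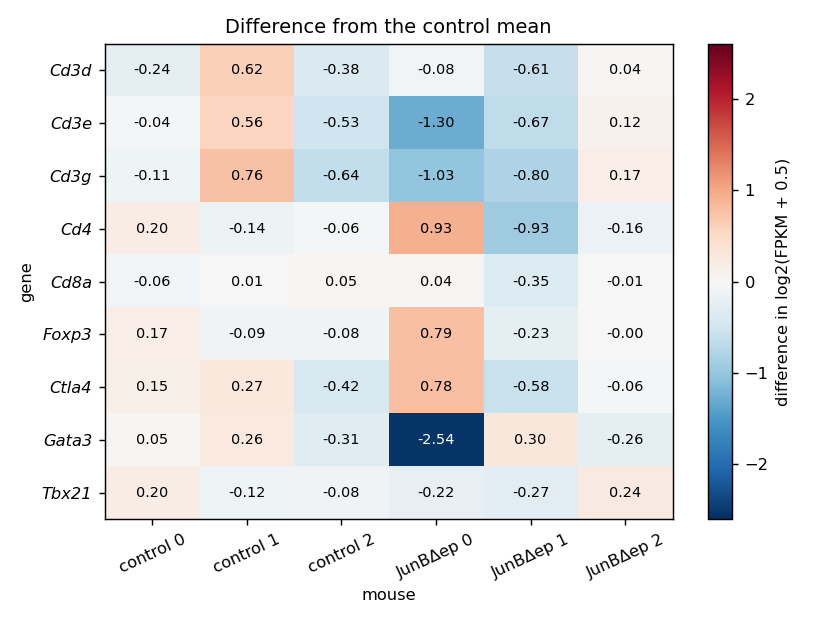
The colour and the printed value give the difference of each mouse (columns) from the control mean for each T cell gene (rows), in log2(FPKM + 0.5). JunBΔep replicate 0 ranges from -2.54 for Gata3 to 0.93 for Cd4, and JunBΔep replicate 1 is below the control mean for each gene but Gata3.

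The sample names run in 2 number series, and the labels do not say what a series marks. One holds control replicates 0 and 1 with JunBΔep replicate 0, the other control replicate 2 with JunBΔep replicates 1 and 2. In the first, the difference between JunBΔep and control on the log2 scale was -1.56 for Cd3e, -1.35 for Cd3g, -2.70 for Gata3, 0.90 for Cd4, 0.75 for Foxp3 and 0.57 for Ctla4. In the second it was 0.25, 0.33, 0.33, -0.49, -0.034 and 0.11 for the same genes, so that the sign was shared by Ctla4 alone among these 6. The first series has 1 JunBΔep mouse and the second 1 control mouse, so these differences were not tested.

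To compare the lineage genes with each other within a mouse, 5 ratios between the genes were compared on the log2 scale, with 0.5 FPKM added to each value, by an exact two-sided permutation test. The 2 ratios that contain Gata3 do not measure T cell lineages alone, since keratinocytes and hair follicles also express it. The added 0.5 FPKM also flattens Tbx21 and Foxp3, so Tbx21 to Gata3 and Foxp3 to Cd3e mainly restate Gata3 and Cd3e. The log2 fold changes were -0.086 for Tbx21 against -0.83 for Gata3, and 0.19 for Foxp3 against -0.61 for Cd3e. With 3 mice against 3 the smallest p this test can give is 0.1. The ratio of Foxp3 to Cd3e was -2.95, -3.81 and -2.72 in controls and -1.07, -2.73 and -3.28 in JunBΔep mice, a difference of 0.80 (exact permutation p = 0.5, adjusted p = 0.875) that was 0.16 without JunBΔep replicate 0. Tbx21 to Gata3 differed by 0.75 (exact permutation p = 0.5), Gata3 to Cd3e by -0.22 (exact permutation p = 0.7), Ctla4 to Foxp3 by -0.14 (exact permutation p = 0.6) and Cd4 to Cd8a by 0.057 (exact permutation p = 0.9), with adjusted p-values of 0.875 to 0.9 from these exact tests. Without JunBΔep replicate 0 the sign of 3 of them turned, to -0.038 for Tbx21 to Gata3, 0.29 for Gata3 to Cd3e and -0.36 for Cd4 to Cd8a, and Ctla4 to Foxp3 was at -0.20. As plain ratios of FPKM, Foxp3 to Cd3e was 0.342 in JunBΔep replicate 0 and 0.0162 to 0.0485 in the other 5 mice, and Ctla4 to Cd3e was 1.71 there and 0.262 to 0.368 in the others. Cd4 to Cd8a was 3.59, 2.19 and 2.25 in controls and 5.94, 1.45 and 2.22 in JunBΔep mice, and Cd4 exceeded Cd8a in 6 of 6. Among JunBΔep replicates 1 and 2, Foxp3, Cd4 and Ctla4 relative to Cd3e lay within the range of the controls, except for Cd4 in JunBΔep replicate 1 (0.0649 against 0.0867 to 0.218).

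The levels were also divided by that of Ptprc in the same mouse, a scaling chosen after the data were seen. Cd4, which varied 9.68-fold over the 6 mice, varied 1.67-fold per Ptprc, at 0.129, 0.145 and 0.168 in controls and 0.131, 0.101 and 0.155 in JunBΔep mice. Foxp3 varied 8.77-fold, and 1.55-fold per Ptprc, at 0.0319, 0.0272 and 0.0289 in controls and 0.0422, 0.0358 and 0.0377 in JunBΔep mice. Foxp3 was the 1 gene of the 9 whose groups did not overlap on this scale, with all 3 JunBΔep mice higher, where 2.02% of all genes did so. In limma relative to Ptprc on the log2(FPKM + 0.5) scale it was not called, with a log2 fold change of 0.25 ± 0.95 (SE, adjusted p = 1.00). That fit cannot decide whether the plain ratios differ, because the added 0.5 FPKM exceeded Foxp3 itself in all mice but JunBΔep replicate 0. The CD3 chains behaved otherwise: Cd3e per Ptprc ranged 13.6-fold, from 0.123 in JunBΔep replicate 0 to 1.67 in control replicate 1. Myeloid cells also express Ptprc, so this divisor is not a count of T cells.

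**Figure D4:**
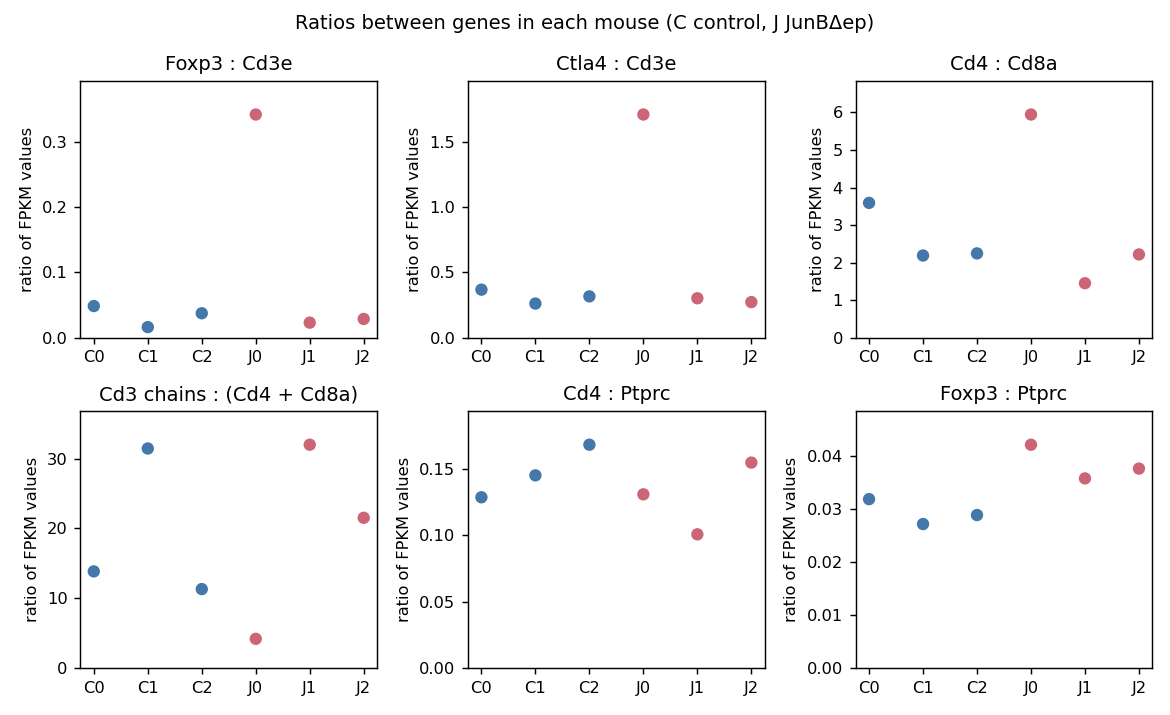
Each panel plots 1 ratio of FPKM values in the 6 mice, controls C0 to C2 in blue and JunBΔep mice J0 to J2 in red, on axes that start at 0. J0 stands above all others for Foxp3 and Ctla4 relative to Cd3e, whereas Cd4 relative to Ptprc lies between 0.101 and 0.168 in all 6 mice.

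Other T cell genes were taken from 7 lists of T cell and lymphocyte genes, which together held 95 tested genes outside the 9. Of these 95 genes, 0 were called by limma. With 1.38% of all tested genes called, this count does not set them apart from other genes. The TCR signalling list, kinases and adaptors downstream of the receptor, had 21 tested genes, 9 higher and 12 lower by log2 fold change (median -0.042), and 2, Prkcq and the adaptor gene Trat1 (named after its values were seen), at an unadjusted p below 0.05. Without JunBΔep replicate 0, 2 of the 21 were higher and the median was -0.19. The groups did not overlap for Prkcq, a kinase of T cells that skeletal muscle also expresses, at 10.7, 10.7 and 11.7 FPKM (controls) against 10.2, 4.84 and 4.05 FPKM (JunBΔep), with an adjusted p of 0.656 from limma, and of 0.061 without JunBΔep replicate 0. They did not overlap either for the transcription factor Nfatc2, at 4.34 to 6.23 and 2.67 to 4.16 FPKM. Skeletal muscle markers were lower in the JunBΔep mice in 10 of 10 genes, 8 of them called (2 without JunBΔep replicate 0 and 0 with a block on the number series, where 1.38% of all tested genes were called with all mice and no block), and summed to 17295 to 23589 FPKM per control mouse against 1629 to 3879 FPKM per JunBΔep mouse. Their part in the Prkcq values was not tested.

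The list of T cell surface and transcription factor genes (18 tested) had a median of 0.22, with 12 higher and 6 lower and 1 at an unadjusted p below 0.05. Ccr7, the homing receptor of naive and central memory T cells and of migrating dendritic cells, was at 0.373, 0.244 and 0.514 FPKM (controls) against 1.38, 1.04 and 0.653 FPKM (JunBΔep) (adjusted p = 0.446 from limma). Cd8b1, the partner chain of Cd8a, was at 0.309, 0.221 and 0.314 FPKM (controls) against 0.221, 0.0427 and 0.101 FPKM (JunBΔep) (adjusted p = 0.722 from limma). In both genes the groups did not overlap, although for Cd8b1 the gap between control replicate 1 and JunBΔep replicate 0 was smaller than the digits given. Without JunBΔep replicate 0 the list's median was -0.065.

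The regulatory T cell and checkpoint lists, which hold the usual companions of Foxp3 and Ctla4, had JunBΔep replicate 0 apart from the rest, as had the T cell surface, T helper and γδ T lists to a smaller extent. In that library the median difference from the control mean was 0.80 for the regulatory T list (14 tested) and 0.82 for the checkpoint list (11 tested), against -0.35 to -0.047 in the other JunBΔep mice, and it was the highest of the 6 mice for 10 of the 14 and 8 of the 11. The 3 most abundant regulatory T genes were Capg, also a macrophage gene, at 315 FPKM there and 85.5 to 137 FPKM elsewhere, and the receptors Tnfrsf18 (GITR) and Tnfrsf4 (OX40), at 42.4 and 10.7 FPKM there and at 16.8 to 36.2 and 4.69 to 10.8 FPKM elsewhere. Of the checkpoint list, Cd274 (PD-L1) was at 14.4 FPKM there and 1.76 to 4.78 FPKM elsewhere, and the Ctla4 ligand Cd86 at 4.20 and 1.34 to 3.72 FPKM, whereas the inhibitory receptor Lag3 was lowest there, at 1.21 FPKM and below the 5 other mice. Further genes, chosen after their values were seen, were also highest there: Icos was at 3.50 FPKM against 0.223 to 0.543 FPKM, Pdcd1 (PD-1) at 2.00 against 0.0499 to 0.309 FPKM, Tnfrsf9 at 5.27 against 0.201 to 0.406 FPKM, and the other ligand Cd80 at 4.64 against 0.213 to 0.636 FPKM. The regulatory T gene Ikzf2, also named after its values were seen, went the other way. It was at 1.75 FPKM there, below the controls at 2.10 to 4.01 FPKM. Over both groups the medians were 0.24 and 0.15, with 0 genes called or at an unadjusted p below 0.05, and -0.085 and -0.19 without that library.

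The list of cytotoxic and natural killer genes (11 tested) had another order, with JunBΔep replicate 0 lowest of the 6 mice in 6 genes and highest in 1. Its median log2 fold change was 0.0033, or 0.17 without that library, and 0 genes were called or had an unadjusted p below 0.05. Nkg7, a granule protein of cytotoxic lymphocytes, was at 10.05, 9.90 and 4.24 FPKM (controls) against 1.02, 3.97 and 7.84 FPKM (JunBΔep), and the protease Ctsw at 3.03, 5.63 and 2.95 FPKM and 0.835, 2.58 and 5.23 FPKM. Klrd1 was at 1.76 to 3.35 FPKM among controls against 1.28 to 3.14 FPKM among JunBΔep mice. Cd7, a surface protein of T and natural killer cells placed on the γδ T cell list, was at 11.8, 16.8 and 7.42 FPKM (controls) against 0.731, 4.77 and 10.7 FPKM (JunBΔep). The lowest mouse was JunBΔep replicate 0 in Nkg7, Ctsw and Cd7, as it was in Cd3e and Cd3g. The γδ T list was left without its receptor genes, which matched no row by symbol, so it is not a measure of γδ T cells. It had 7 tested genes with a median of 0.17, or -0.017 without JunBΔep replicate 0, the highest mouse in 5 of them. Its other 2 most abundant genes, Fcer1g and Sox13, are also expressed by myeloid cells and by hair follicles.

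The T helper list (20 tested of 28, the others under the filter) had a median of 0.018, with 10 genes higher and 10 lower and 1 in each direction at an unadjusted p below 0.05. Without JunBΔep replicate 0, 4 of the 20 were higher and the median was -0.15. Stat4, the transducer of IL-12 signals, was at 0.394, 0.315 and 0.234 FPKM (controls) against 1.02, 0.494 and 0.833 FPKM (JunBΔep), without overlap (adjusted p = 0.520 from limma). Bcl6, the factor of follicular helper T cells, which is also expressed widely outside T cells, was at 34.4 to 42.8 FPKM among controls against 23.9 to 26.8 FPKM among JunBΔep mice, without overlap (adjusted p = 0.369 from limma). Ahr, at 7.03 to 10.9 FPKM among controls against 3.49 to 6.79 FPKM among JunBΔep mice, did not overlap either.

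**Figure D5:**
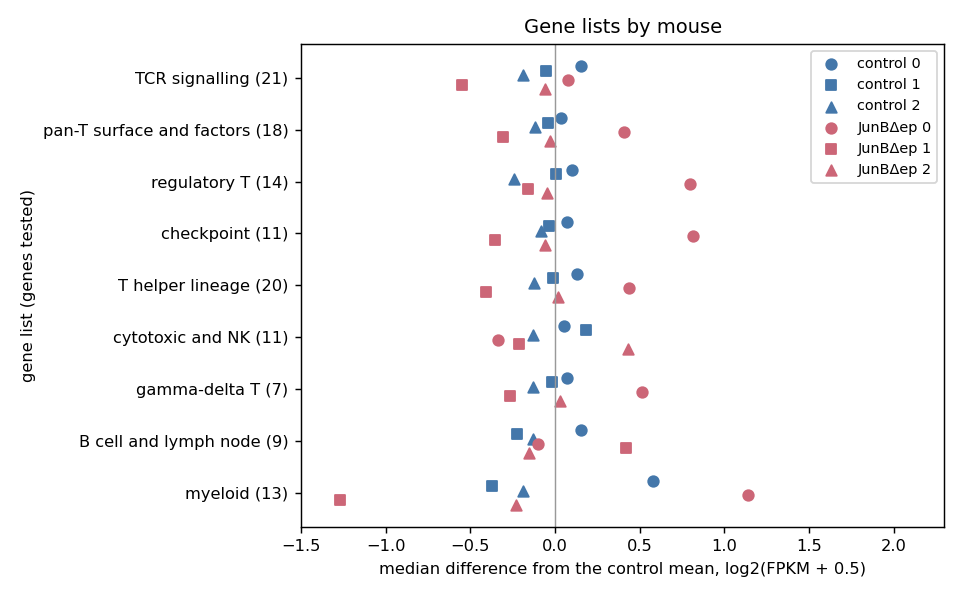
Points give the median difference of each mouse from the control mean, in log2(FPKM + 0.5), over the tested genes of each list (number in brackets), with controls in blue and JunBΔep mice in red. JunBΔep replicate 0 is highest for the regulatory T (0.80), checkpoint (0.82), myeloid (1.14), γδ T (0.51), T helper (0.44) and pan-T (0.41) lists and lowest for the cytotoxic and NK list (-0.34).

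Markers of other cells that could hold or accompany these transcripts were measured alongside. The myeloid list, 13 tested genes, had its highest median in JunBΔep replicate 0 (1.14) and its lowest in JunBΔep replicate 1 (-1.27). These were the mice with the highest and lowest Cd4, Foxp3 and Ctla4. The list summed to 282 to 1281 FPKM per control mouse against 121 to 25381 FPKM per JunBΔep mouse. The gene S100a8 alone made up 24456 of the 25381 (JunBΔep replicate 0) and 744 of the 1281 (control replicate 0). The highest sum of each group thus rests largely on S100a8 and does not describe the list as a whole. By log2 fold change 9 of the 13 were lower (median -0.068), and 12 without JunBΔep replicate 0 (median -0.67). The groups did not overlap for Cd209a, a lectin gene of dendritic cells, at 26.1, 15.1 and 17.8 FPKM (controls) against 2.86, 4.12 and 12.2 FPKM (JunBΔep), with an adjusted p of 0.375 from limma. The list's part in the Cd4 values, since some mouse myeloid cells transcribe Cd4, was not tested. Of the B cell and lymph node list, Ccl21a and Ccl19 were listed at 0 in all 6 mice, and Fcer2a was at 5.72, 1.54 and 2.81 FPKM (controls) against 0.132, 0.589 and 0.400 FPKM (JunBΔep) (adjusted p = 0.163 from limma). This list summed to 6.44 to 13.6 FPKM per control mouse against 5.99 to 41.3 FPKM per JunBΔep mouse. The highest sum, in JunBΔep replicate 0, was mostly Cxcl13 (28.6 FPKM) and Glycam1 (8.83 FPKM). Of the 9 tested genes, 3 were highest there and 3 lowest, among the latter the B cell genes Cd79a (0.168 FPKM) and Cd79b (0.541 FPKM). Of the thymocyte genes, Rag1 and Dntt were at 0.0358 and 0.0540 FPKM or less in every mouse, and Rag2 was at 0 in 5 of 6. Ptcra, another gene of the thymus list, was higher, at 0.323 to 0.643 FPKM among controls and 0.428 to 1.30 FPKM among JunBΔep mice. For the mast cell and ILC2 list (10 tested) the median was -0.011, with Areg alone not overlapping, at 1.94 to 4.43 FPKM among controls against 4.50 to 88.3 FPKM among JunBΔep mice. The 3 tested thymus genes (median 0.34), the 8 keratinocyte genes (median -0.088), the 7 inner root sheath genes (median 3.46) and the 5 mucosal genes (median 3.17, or -0.041 without JunBΔep replicate 0) each held 0 called genes. Blood and liver transcripts were highest in control replicate 0, where Alb was at 823 FPKM and their summed level was 2911 FPKM against 50.8 to 485 FPKM in the other mice.

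Genes with the nearest profile over the 6 mice were ranked by the root mean square distance on the log2(FPKM + 0.5) scale, among 13742 tested genes whose mean reached 1 FPKM. Nearest to the mean of the 3 CD3 chains were Tspan17 (distance 0.0904), Ramp2 (0.106), Lgals1 (0.111), Matk (0.117) and Etfb (0.130), where the profile itself has a root mean square of 0.552. Matk, a kinase of blood cells, was at 3.23, 5.16 and 2.07 FPKM (controls) against 2.06, 1.85 and 3.32 FPKM (JunBΔep). Nearest to Foxp3 were Hagh (0.0579), Jak2 (0.0608), Scarb2 (0.0729), Erlin1 (0.0744) and Diap2 (0.0761), where the profile has a root mean square of 0.347. The added 0.5 FPKM flattens the profile of Foxp3, which varied 8.77-fold in FPKM, so these genes are near the flattened profile and vary less than Foxp3 in FPKM. Jak2, a cytokine receptor kinase, was at 7.74, 7.21 and 6.99 FPKM (controls) against 13.6, 5.97 and 6.98 FPKM (JunBΔep). None of these 10 genes is on a T cell list used here.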

How the data were processed

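The authors checked reads with FastQC, aligned them to mm9 with TopHat 2.0.10, Bowtie 1.0.0 and SAMtools 0.1.19 in the nextpresso pipeline, and deposited 1 FPKM value for each gene in each mouse. The processing notes of the submitters also list Cufflinks, and whether the libraries were scaled further is not stated there. The methods state a count test, and read counts were not analysed here. The groups were compared on the log2(FPKM + 0.5) scale in limma 3.58.1 (R 4.3.3) with an intensity trend. The 17021 genes whose mean reached 0.1 FPKM entered the fit, p-values were adjusted by Benjamini-Hochberg, and 0.05 was the threshold. All 9 genes passed this filter, also by their control mean alone. The genes and lists were chosen with earlier results of these data known, and no list was tested as a set. Named genes of a list were those called, otherwise up to 4 without overlap between groups, otherwise the 3 most abundant, with muscle, thymus, blood, mucosal and hair genes given mainly as sums or medians. Defining markers at or near 0 (Ccl21a, Ccl19, Rag1, Rag2, Dntt) were named outside this rule, after their values were seen, and other exceptions are stated. Ratios were tested with exact permutation (scipy 1.17.1). The fit was tested on simulated data. Alternatives were other pseudocounts, filters, scalings and fits, blocks on the replicate number or number series, and each mouse left out. Each library is a separate mouse, and p-values measure the spread between these littermates. Positions are from GENCODE vM1 on mm9, and figures were drawn with matplotlib 3.10.9. The thymus, hair, keratinocyte, muscle, blood and mucosal lists served only as markers.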

Additional observations from a re-analysis of the deposited data

How the results depend on the processing

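None of the 9 T cell genes was called under any of the 17 alternatives, with an unadjusted p below 0.05 in 0 of the 9 each time by limma. Over all genes, 235 were called. The replicate block and the block on the number series each gave 0 called genes (854 and 1077 lower at an unadjusted p below 0.05), and values relative to Ptprc, an alternative chosen after seeing the data, gave 18. Leaving out 1 mouse gave 0 to 251, with 0 without control replicate 0, 1 or 2 or without JunBΔep replicate 1, 131 without JunBΔep replicate 0 and 251 without JunBΔep replicate 2. Same-numbered mice did not deviate together (correlations over genes of 0.12, -0.23 and -0.43 for replicates 0, 1 and 2), so the number is only a name and the blocked fits are not read as paired. Cd3e and Cd3g kept a negative log2 fold change in all 17. Cd4 turned positive after quantile normalization (0.073), with the number series block (0.21) and relative to Ptprc (0.015). With 1 mouse left out, log2 fold changes ranged from -0.40 to 0.092 for Cd3d, -0.98 to -0.27 for Cd3e, -0.91 to -0.17 for Cd3g, -0.54 to 0.38 for Cd4, -0.18 to 0.014 for Cd8a, -0.32 to 0.36 for Ctla4, -0.12 to 0.39 for Foxp3, -1.40 to 0.020 for Gata3 and -0.25 to 0.013 for Tbx21. The highest Gata3 value, the lowest Foxp3 and the lowest Ctla4 values came without JunBΔep replicate 0. The differences in log2 ratio ranged from -0.36 to 0.37 for Cd4 to Cd8a, -0.31 to 0.044 for Ctla4 to Foxp3, -0.81 to 0.29 for Gata3 to Cd3e, -0.038 to 1.41 for Tbx21 to Gata3, and 0.16 to 1.26 for Foxp3 to Cd3e, with 0.16 without JunBΔep replicate 0. The cause of these changes was not tested. With a mean FPKM of at least 1 required, 5 of the 9 genes were tested. Read numbers are unknown, so the counting error of Foxp3, Tbx21 and Cd8a is too.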
